A study of Homo sapiens with 18 samples.

Results

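The proteasome is the barrel-shaped protease that degrades proteins marked with ubiquitin. The genes described here are those whose name starts with PSM, a letter from A to G and a digit, with at least 1 transcript of the protein_coding type. By that rule 48 of the 32490 gene names in the table were members, with 417 transcripts in all, and the estimated counts of the transcripts were summed by gene name. Of these 48 genes, 47 encode proteasome subunits, assembly chaperones, activators or a regulator, and 1, PSMC3IP, is a recombination factor that carries the name of its partner PSMC3.

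RNA-SEQ was done on 18 samples of spheroidal aggregates held in Matrigel in electrotaxis channels, 3 samples for each of 6 conditions. The aggregates were made of U87 mg, an established human glioblastoma line, or DAOY, an established human medulloblastoma line. Each line was sampled without the field (0 h) and after 2 h or 8 h of a continuous direct current electric field (dcEF) of 250 V/m, and each sample pooled 3 channels. No sample stood in a channel for 2 h or 8 h with the field off among those analysed here, and effects of dcEF and of hours in Matrigel cannot be told apart. Each condition stands on 1 established line and not on several tumors, and whether the 3 samples of a condition came from separate cultures is known only from the statement that they are biological replicates. The study states that the 3 samples of a condition were those with the best quality control among more biological replicates. DAOY at 8 h had only 3 to choose from, after 1 was dropped for poor RNA quality. All comparisons over time within a line share its 0 h samples.

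A hollow 20S core is built of rings of alpha and beta subunits, and of the beta subunits 3 carry the protease sites. A 19S cap, with a base of ATPases that unfold the substrate and a lid that removes ubiquitin, opens the core, while dedicated chaperones that are not part of the finished particle build both. Cells exposed to interferon replace the catalytic subunits with the immunoproteasome forms, which serve antigen presentation, and NFE2L1 is the transcription factor best known for raising the subunit genes together when proteasome capacity falls short.

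The RNA stood as follows before any comparison. The estimated counts summed to 8341976 to 15610886 per sample, and the 48 genes took 0.655 to 0.768% of them in U87 mg and 0.738 to 1.052% in DAOY. The highest share came from DAOY 0 h replicate 2, a library in which mitochondrial genes took 2.92% of counts against 5.59 and 5.70% in the other 0 h libraries of that line. The lowest DAOY share came from 8 h replicate 1, whose mitochondrial share was 8.44%, the highest of all 18. The part that these shares play in the results was not tested. Of the markers listed for each origin, 4 of 9 glial genes had a median above 1 TPM in U87 mg and 5 of 9 cerebellar genes did so in DAOY. The same lists gave 4 of 9 glial genes in DAOY and 4 of 9 cerebellar genes in U87 mg, so these counts do not separate the lines. GFAP, the defining astrocyte filament, had a median of only 0.958 TPM in U87 mg, and SOX2 had a median of 0 there and of 5.13 TPM in DAOY. In bulk RNA, fewer cells of a kind and less RNA per cell cannot be told apart.

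Promoter sequences of 3 genes are shown, because they belong to the only member called over time (PSMD5), the gene that differed most between the lines (PSMA6) and the immunoproteasome gene with the largest difference between the lines (PSMB9). The PSMD5 call did not hold in every fit, as given below. Each is the part of the RefSeq window (build GRCh38.p14) before the start site that holds no exon of a protein_coding gene in GENCODE 29, written 5′ to 3′ on the strand of the gene. Capitals mark the letters TGACNNNGC, the core of the antioxidant response element bound by NFE2L1 and NFE2L2 with small MAF partners, on either strand.
PSMD5, chr9:120842985-120843172, minus strand: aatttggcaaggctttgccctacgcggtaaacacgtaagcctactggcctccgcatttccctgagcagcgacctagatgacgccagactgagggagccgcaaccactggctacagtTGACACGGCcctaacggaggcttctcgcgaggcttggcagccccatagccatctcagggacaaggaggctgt
PSMB9, chr6:32853979-32854147, plus strand: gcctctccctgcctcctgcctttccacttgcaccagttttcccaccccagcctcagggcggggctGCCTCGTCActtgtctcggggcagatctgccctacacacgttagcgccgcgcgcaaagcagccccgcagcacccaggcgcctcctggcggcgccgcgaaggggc
PSMA6, chr14:35292067-35292316, plus strand: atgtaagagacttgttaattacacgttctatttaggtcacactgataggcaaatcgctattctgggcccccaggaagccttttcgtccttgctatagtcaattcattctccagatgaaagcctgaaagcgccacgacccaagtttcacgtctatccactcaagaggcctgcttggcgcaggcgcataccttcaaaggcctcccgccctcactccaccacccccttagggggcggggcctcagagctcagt
The PSMD5 stretch holds the core on its own strand, the PSMB9 stretch holds it on the opposite strand, and the PSMA6 stretch holds no match. The PSMB9 and PSMA6 stretches lie inside the spans of these genes in GENCODE 29, which begin further upstream. Sequence before those earlier starts is not shown. Over whole RefSeq windows, from 250 bases before the start site to 50 after it, 42 of the 48 genes were matched, with 52 windows. The TGACNNNGC core lay in 15 of the 52 windows (28.8%) and in 13.3% of all 35116 promoter windows. CCAAT, the box bound by NF-Y, lay in 22 of the 52 (42.3%) and in 34.6% of all windows. Both were searched on both strands, and matches of the 2 motifs can share letters. A match in 5 or 9 letters describes the sequence only and is not a measured site.

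Levels are first given as TPM, which divides by transcript length and so allows genes to be set side by side. At 0 h the alpha ring was the most abundant group in both lines, with its 7 genes summing to 2809 ± 278 TPM in U87 mg and 4857 ± 822 TPM in DAOY (SD, n = 3 here and below). The 6 ATPases of the 19S base summed to 1277 ± 96.8 TPM in U87 mg and 2389 ± 275 TPM in DAOY. The 8 lid genes summed to 1560 ± 23.6 and 1886 ± 343 TPM. In the same order of lines, the 3 constitutive catalytic genes summed to 612 ± 68.8 and 795 ± 156 TPM, whereas their 3 immunoproteasome counterparts summed to 60.5 ± 17.8 and 101 ± 34.0 TPM. The 4 chaperones of the 20S core came to 333 ± 30.4 and 464 ± 22.8 TPM, and the 3 member chaperones of the 19S base to 199 ± 3.92 and 220 ± 11.2 TPM. The mean sums named so far were higher in DAOY, while the 3 other subunits of the 19S base (PSMD1, PSMD2 and PSMD4) went the other way, at 971 ± 108 TPM in U87 mg and 732 ± 115 TPM in DAOY.

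Single genes spanned a wide range around these sums. In U87 mg at 0 h the highest was PSMD2, a scaffold subunit of the 19S base, at 607 ± 83.2 TPM, and in DAOY it was PSMA6, an alpha ring subunit, at 1435 ± 385 TPM. Within the alpha ring at 0 h, the lowest gene in both lines was PSMA7, at 316 TPM in U87 mg and 225 TPM in DAOY. PSMA5 was the highest there in U87 mg, at 503 TPM, though few of its counts lay on protein_coding transcripts (a mean of 4.60%). Among the ATPases PSMC1 was highest in both, at 432 ± 18.5 and 722 ± 123 TPM, while the lowest was PSMC4 in U87 mg and PSMC3 in DAOY. PSMB7, the trypsin-like catalytic subunit, was the highest of the constitutive catalytic genes at 344 TPM in U87 mg and 421 TPM in DAOY. PSMD8 led the lid in U87 mg at 244 TPM and PSMD11 led it in DAOY at 476 TPM, with PSMD3 lowest in both. PSMG4, a 20S assembly chaperone, was the lowest tested gene in U87 mg at 9.41 ± 1.06 TPM. PSMB11, the catalytic subunit of the thymus, reached at most 0.022 ± 0.039 TPM (U87 mg) and 0.085 ± 0.087 TPM (DAOY) as a group mean at 0 h and was listed at 0 at 2 h and 8 h in both lines. It did not pass the filter on low counts in any fit, so 47 genes were tested.

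**Figure D1:**
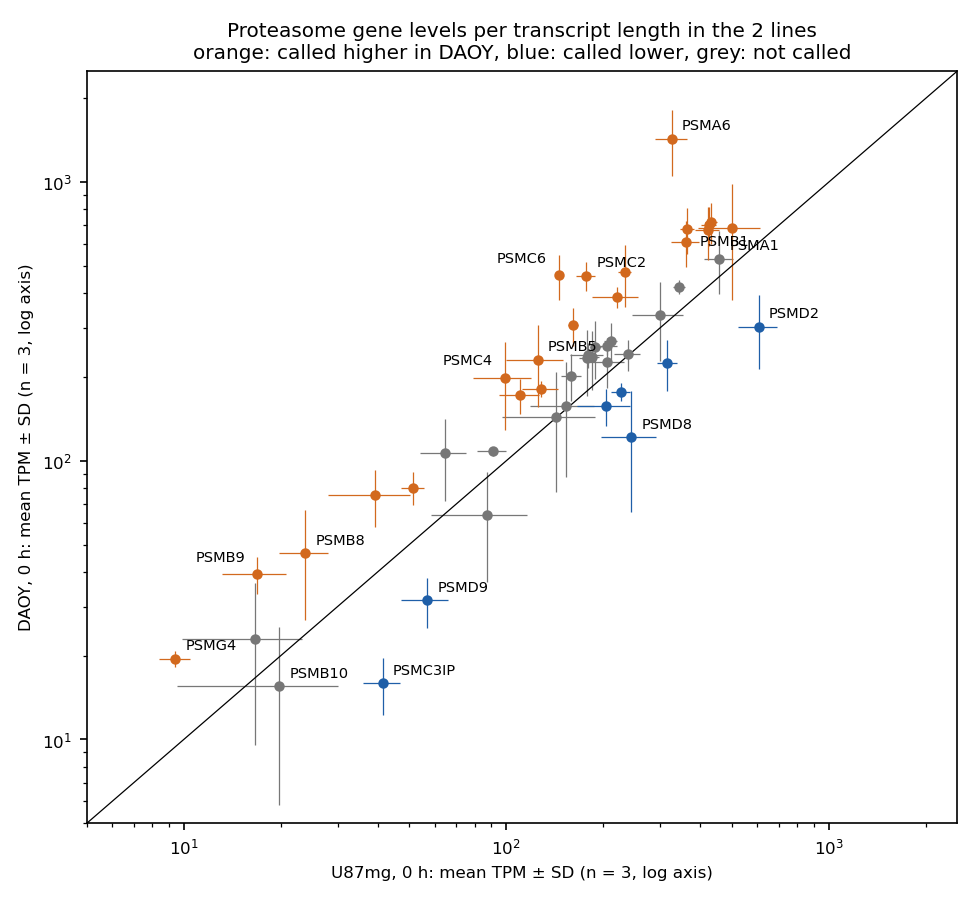
Mean TPM ± SD (n = 3) of the 47 tested genes at 0 h, U87mg on the x axis and DAOY on the y axis, both log axes, with the line of equality. PSMA6 lies farthest above the line at 1435 TPM in DAOY against 326 TPM in U87mg, and PSMD2, PSMD8, PSMD9 and PSMC3IP lie below it.

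The first comparison asks how the lines differed before the field was applied. Of the 47 genes, 21 were higher in DAOY and 7 were lower at an FDR below 0.05 in edgeR's quasi-likelihood test. Over all 16482 genes tested, 60.7% were called, 32.8% as higher and 27.9% as lower, so the share of members called (59.6%) is near the rate of the whole table. With a difference of at least 2-fold also required, 7 members were called beside 41.2% of all genes. An unadjusted p below 0.05 was found for 29 members, beside 64.3% of all genes. All samples of one line lay above all those of the other for 23 members (17 higher and 6 lower in DAOY), where 59.3% of all genes had groups that did not overlap. The median log2 difference, DAOY minus U87 mg, was 0.32 over the members and 0.05 over all genes. Counted on protein_coding transcripts only, 18 members were higher and 7 lower. By subcomplex, the ATPases of the 19S base counted 5 higher and 1 lower of 6, and the alpha ring 5 higher and 1 lower of 7. One of those higher alpha ring genes was PSMA5, with a mean of only 4.60% (U87 mg) and 1.36% (DAOY) of its counts on protein_coding transcripts at 0 h. The lid counted 1 higher and 1 lower of 8, the other base subunits 0 higher and 1 lower of 3, the structural beta subunits 1 higher of 4, the constitutive catalytic ones 1 higher of 3 and the immunoproteasome ones 2 higher of 3.

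Levels by sample are given in CPM, the estimated count relative to the library size scaled by TMM over all 18 samples, which suits the same gene between samples. PSMA6 had 854, 474 and 674 CPM in the 3 DAOY 0 h samples and 207, 156 and 164 CPM in the U87 mg ones. Every DAOY sample lay above every U87 mg sample, and the log2 difference was 1.93 (95% interval 1.57 to 2.28, FDR 3.66e-08). Both leading PSMA6 transcripts carried it, since ENST00000540871 averaged 3638 ± 638 estimated counts in DAOY and 1117 ± 85.6 in U87 mg, and ENST00000261479 averaged 2298 ± 248 and 848 ± 195. PSMA6 lies at chr14:35278633-35317493 on the plus strand in GENCODE 29 (GRCh38) and shares exonic sequence with another protein_coding gene on that strand, AL121594.1, so the assignment of its reads is uncertain.

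PSMC6, an ATPase of the base on the same chromosome (chr14:52707172-52728587, plus strand), had 331, 228 and 340 CPM in DAOY and 111, 101 and 103 CPM in U87 mg. The groups did not overlap and the log2 difference was 1.51 (1.19 to 1.83, FDR 1.72e-07). PSMC2, another of the ATPases, had 503, 392 and 549 CPM in DAOY against 204, 195 and 181 CPM, a log2 difference of 1.32 (1.04 to 1.59, FDR 1.67e-07), again without overlap. PSMC4, also an ATPase, differed by 0.89 (0.49 to 1.29, FDR 5.51e-04). PSMB1, a structural beta subunit, was higher by 0.76 (0.51 to 1.00, FDR 2.12e-05), with 307, 283 and 387 CPM in DAOY against 191, 191 and 196 CPM. The 47 tested genes kept the leading transcript of U87 mg as that of DAOY in 44 cases at 0 h, and the exceptions were PSMB5, PSMC3IP and PSME3. That transcript was of the protein_coding type for 42 genes in U87 mg and 41 in DAOY. It was of another type in both lines for PSMA5, PSMD9, PSMD12, PSMD13 and PSMG1, and in DAOY for PSMC3IP.

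Of the subunits lower in DAOY, PSMD2 and PSMD8 had the largest differences. PSMD2 had 204, 271 and 326 CPM in DAOY and 508, 641 and 655 CPM in U87 mg, with no overlap and a log2 difference of -1.17 (-1.52 to -0.82, FDR 9.84e-06). PSMD8, a lid subunit, had 49.7, 92.3 and 102 CPM against 131, 171 and 196 CPM, also without overlap, for a difference of -1.03 (-1.56 to -0.50, FDR 0.00188). PSMD9, a chaperone of 19S base assembly, was lower by -0.90 (-1.23 to -0.57, FDR 9.44e-05) and shares exonic sequence with other genes of its strand. Counted on protein_coding transcripts only, PSMD9 was not called, at -0.48 (FDR 0.255). PSMC3IP, the gene that is no proteasome subunit, had the lowest difference of the 47 tested, at -1.54 (-2.10 to -0.98, FDR 8.15e-05). The other called genes below 0 were PSMA7, PSMC3 and PSME3. Leaving PSMC3IP out leaves 21 higher and 6 lower among the 46 tested proteasome genes.

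Among the genes that do the cutting, the lines differed in PSMB5, PSMB8 and PSMB9. PSMB5, the chymotrypsin-like subunit, had 71.6, 116 and 133 CPM in DAOY and 50.6, 72.5 and 68.2 CPM in U87 mg, so the lowest DAOY sample lay just inside the U87 mg range while the test gave 0.75 (0.33 to 1.16, FDR 0.00333). PSMB8, which replaces it in the immunoproteasome, had 15.8, 33.5 and 34.0 CPM against 13.6, 16.3 and 18.3 CPM, for 0.79 (0.26 to 1.32, FDR 0.0115), also with overlap. Its call was lost without DAOY 0 h replicate 1 (0.61, FDR 0.0684) or replicate 2 (0.61, FDR 0.0714). PSMB9 had 9.61, 14.5 and 18.1 CPM against 5.39, 7.56 and 8.04 CPM, with no overlap and a difference of 1.00 (0.39 to 1.62, FDR 0.00645). For PSMB6, the caspase-like subunit, PSMB7 and PSMB10 the log2 differences were -0.15 (-0.74 to 0.43), -0.01 (-0.32 to 0.31) and -0.19 (-0.97 to 0.58), and they were not called. PSMB8 and PSMB9 lie next to each other on chromosome 6 on opposite strands and share exonic sequence. The library kit kept strand information, but whether the counting used it is not given in the sources used here, so their counts may not be fully separate. In GENCODE 29, 20 of the 48 genes overlap an exon of a gene on the opposite strand and 8 one of a gene on the same strand.

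**Figure D2:**
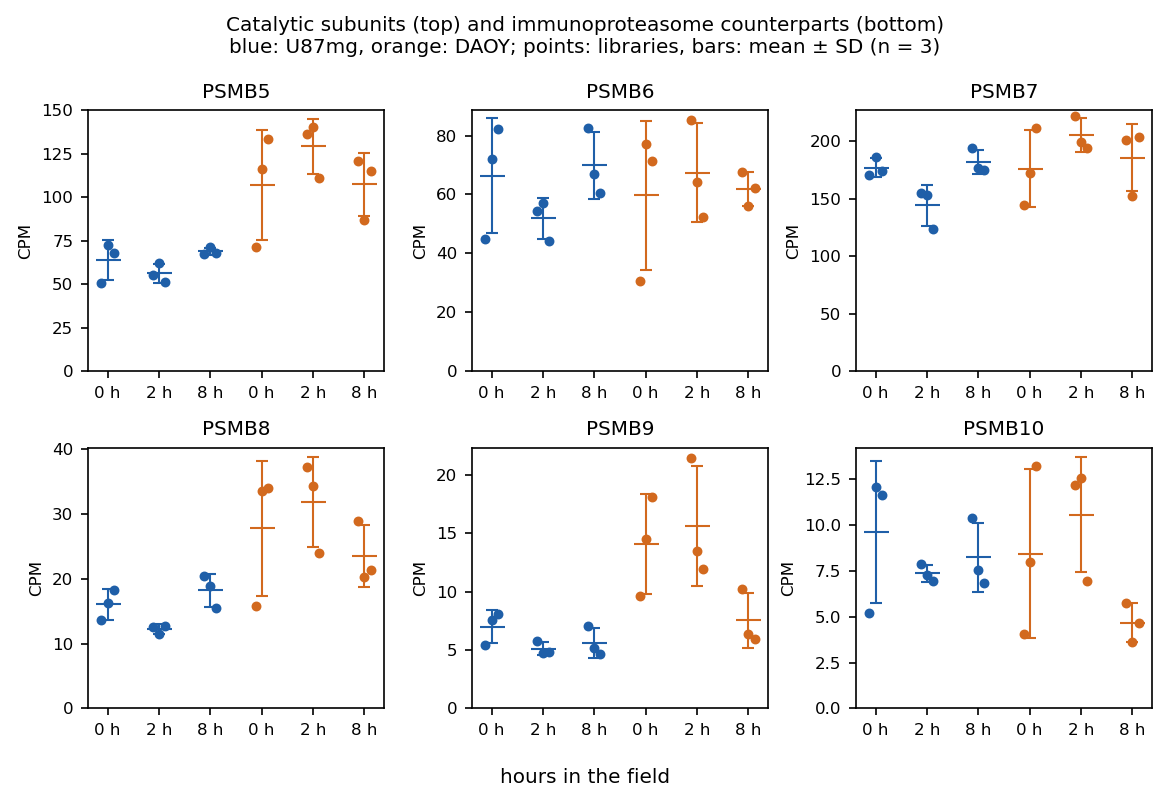
CPM of the constitutive catalytic subunits PSMB5, PSMB6 and PSMB7 and of their immunoproteasome counterparts PSMB8, PSMB9 and PSMB10 in each sample (points), with mean ± SD (n = 3), against hours in the field. The DAOY means of PSMB9 are 14.1 CPM at 0 h and 7.53 CPM at 8 h, a difference that was not called, with 1 of the 8 h samples above the lowest 0 h sample.

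The next comparisons ask what differed within a line between 0 h and 2 h or 8 h, where dcEF and time in the channel go together. After 2 h no member was called in either line. In U87 mg 0 of 47 passed, 0% of all 14106 genes passed, and 7 members had an unadjusted p below 0.05 beside 8.78% of all genes. Groups did not overlap for 10 members (6 higher and 4 lower), beside 12.1% of all genes. Their median log2 change was -0.04 beside -0.02 over all genes, and the 95% intervals of 44 of the 47 lay inside a 2-fold change either way. In DAOY 0 of 47 passed beside 0% of 15396 genes, 0 members had an unadjusted p below 0.05 beside 2.75% of genes, 0 had groups that did not overlap beside 6.91%, and 45 intervals lay inside a 2-fold change. The U87 mg count depends on 1 library, since without U87 mg 0 h replicate 0 the test called 8 members, at a rate of 8.38% of all genes. Those lower at 2 h were PSMB3, PSMB6, PSMC3, PSMC4, PSMD2, PSMD3 and PSMD9, with log2 changes of -0.63 to -0.47, and PSMG2 was higher by 0.41.

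At 8 h in U87 mg, 0 of 47 members passed, against 1.72% of all 14106 genes. Of the 47 changes, 40 were above 0, with a median of 0.11 beside -0.001 over all genes (0.03 beside -0.07 with upper quartile scaling), and all 47 intervals lay inside a 2-fold change. All 8 lid genes and all 7 alpha ring genes had estimates above 0, with medians of 0.19 and 0.15, none of which passed. Most genes of the other complexes given below were above 0 as well. The lid genes PSMD14, the deubiquitinase of the lid, PSMD11 and PSMD12 had the estimates 0.37 (0.08 to 0.66), 0.34 (0.10 to 0.58) and 0.34 (0.06 to 0.62). PSME4, a large activator that binds the core in place of the 19S cap, had 0.41 (0.10 to 0.72, FDR 0.18). Without U87 mg 0 h replicate 0, PSME4 alone was called, at 0.56 (FDR 0.0357), while 5.2% of all genes were. The unadjusted p was below 0.05 for 6 members, beside 15.9% of all genes, and those were these 4, PSMC6 and PSMD5, of which PSMD5 alone was negative. Groups did not overlap for PSMB1, PSMC6, PSMD11 and PSMD13 (higher) and PSMD5 (lower), beside 17.4% of all genes.

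At 8 h in DAOY, 1 of 47 members passed, PSMD5, against 5.85% of all 15396 genes and 3.5% called as lower. With a change of at least 2-fold also required it was 0 of 47, beside 3.13% of all genes. The unadjusted p was below 0.05 for 2 members, PSMD5 and PSMB9, beside 22.7% of all genes. PSMD5 encodes a chaperone that holds ATPases of the 19S base during assembly. It had 175, 123 and 164 CPM at 0 h, 117, 139 and 127 CPM at 2 h and 96.4, 88.6 and 90.1 CPM at 8 h. All 8 h samples lay below all samples of 0 h and 2 h, and the log2 change from 0 h to 8 h was -0.72 (-1.05 to -0.40, FDR 0.0234). In U87 mg PSMD5 had 115, 92.1 and 97.4 CPM at 0 h and 76.7, 79.1 and 77.2 CPM at 8 h. Those groups did not overlap either, and the change of -0.35 (-0.59 to -0.11, FDR 0.14) was not called. The difference of the 8 h changes between the lines was -0.36 (-0.75 to 0.03, FDR 0.61), so a larger change in DAOY was not shown.

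The PSMD5 call in DAOY was lost in 5 of the 9 fits that left out 1 library, and also with only the 6 samples of 0 h and 8 h in the fit (FDR 0.0722). Without 8 h replicate 0, 1 or 2 its FDR was 0.0585, 0.106 and 0.098, without 0 h replicate 2 it was 0.0797 and without 2 h replicate 2 it was 0.0524, while the log2 change stayed between -0.85 and -0.64 over all 9 such fits. One transcript, ENST00000210313, carried most PSMD5 counts and averaged 1494 ± 18.2 at 0 h and 904 ± 141 at 8 h in DAOY, and 1222 ± 228 and 875 ± 157 in U87 mg, as estimated counts not scaled for depth. PSMD5 lies at chr9:120815496-120842984 on the minus strand in GENCODE 29 (GRCh38).

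The other chaperones of 19S base assembly are PSMD9 and PSMD10 among the members and PAAF1 outside the name rule. PAAF1 had 18.5, 19.5 and 19.5 CPM at 0 h in DAOY, 17.5, 13.8 and 18.5 CPM at 2 h and 10.2, 8.29 and 9.20 CPM at 8 h. The 8 h samples lay below the rest, and PAAF1 fell by 1.04 on the log2 scale (interval -1.46 to -0.62, FDR 0.0175), the largest change of the 4 chaperones. Without DAOY 0 h replicate 2, 8 h replicate 1 or 8 h replicate 2 its FDR was 0.0508, 0.0842 and 0.0731. Its call was also lost with only the 6 samples of 0 h and 8 h in the fit. PAAF1 shares exonic sequence with COA4 on the opposite strand. In U87 mg PAAF1 had 14.2 ± 1.68 CPM at 8 h and 16.1 ± 2.24 CPM at 0 h, a change of -0.15 (FDR 0.80), and the difference between the lines was not called (-0.88, FDR 0.28). PSMD10, also called gankyrin, had 107, 87.7 and 86.0 CPM at 0 h and 77.1, 83.6 and 59.6 CPM at 8 h in DAOY, groups without overlap and a change of -0.32 (-0.67 to 0.02, FDR 0.26). PSMD9 had -0.19 (-0.63 to 0.24, FDR 0.63). In DAOY at 8 h, 2 members had samples all below those of 0 h and 0 had samples all above, where 25.7% of all genes had groups that did not overlap.

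**Figure D3:**
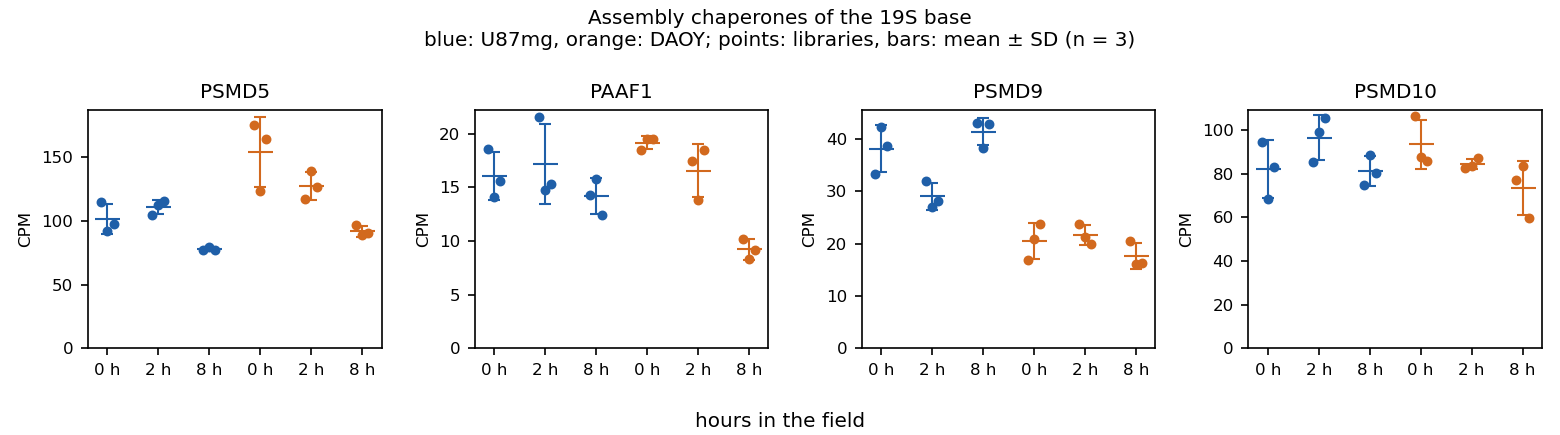
CPM of PSMD5, PAAF1, PSMD9 and PSMD10, the assembly chaperones of the 19S base, in each sample (points) with mean ± SD (n = 3), against hours in the field. For PSMD5 and PAAF1 all DAOY samples at 8 h lie below all DAOY samples at 0 h and 2 h.

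Among the immunoproteasome genes at 8 h in DAOY, PSMB9 had 10.2, 6.40 and 5.95 CPM at 8 h, and its log2 change of -0.88 (-1.62 to -0.14) had an unadjusted p of 0.0245 in edgeR but an FDR of 0.15. PSMB10 had 4.05, 8.01 and 13.3 CPM at 0 h and 5.74, 3.62 and 4.63 CPM at 8 h, for -0.84 (-1.76 to 0.08, FDR 0.27). Both were low genes whose 0 h samples spread widely, and both intervals reach past a 2-fold lower level. PSMB8 had -0.22 (-0.90 to 0.45, FDR 0.73). The constitutive subunits they replace had estimates close to 0, at 0.02 (-0.48 to 0.53) for PSMB5, 0.07 (-0.63 to 0.76) for PSMB6 and 0.10 (-0.29 to 0.48) for PSMB7.

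As a share of TPM within each pair, PSMB9 made up 23.6 ± 8.13% of PSMB6 plus PSMB9 in DAOY at 0 h, 23.1 ± 1.45% at 2 h and 11.7 ± 3.37% at 8 h, and the highest 8 h sample (15.5%) lay below the lowest 0 h sample (17.1%). In U87 mg the same share was 10.8 ± 1.24%, 9.92 ± 0.535% and 7.74 ± 0.160%, and the 8 h samples (highest 7.91%) lay below the 0 h ones (lowest 9.62%). PSMB8 made up 16.4 ± 2.68% of PSMB5 plus PSMB8 in DAOY at 0 h and 14.5 ± 1.63% at 8 h, and PSMB10 3.47 ± 1.93% and 2.24 ± 0.169% of PSMB7 plus PSMB10. With 3 samples against 3, an exact permutation test of a single value cannot go below 0.10, and none is given for these shares. In U87 mg the PSMB8 share was 16.1 ± 1.58% at 0 h and 16.7 ± 3.01% at 8 h, and the PSMB10 share 5.39 ± 2.69% and 3.94 ± 0.523%. The shares of PSMB8 and PSMB10 overlapped between 0 h and 8 h in both lines. How often such shares separate over all genes was not computed.

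Across all 47 members at 8 h in DAOY the median log2 change was -0.08 beside -0.01 over all genes, with 33 below 0. Leaving out DAOY 0 h replicate 2, the library with the highest member share, turned the median to 0.05. Leaving out 0 h replicate 0 or 1 moved it the other way, to -0.17 and -0.14, and limma on log2(TPM + 1) gave -0.20 with a median of -0.06 over all genes. Replicates of DAOY 0 h were also the least alike, with a median coefficient of variation over the members of 22.4%, against 8.5 to 11.6% in the other conditions, and replicate 2 had the highest of the 3 values for 32 of 47 members. The intervals were wider accordingly, with a median of ± 0.40 in DAOY and ± 0.29 in U87 mg, and in DAOY at 8 h they lay inside a 2-fold change for 44 of 47 members, the exceptions being PSMB9, PSMB10 and PSMD5.

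The difference of the 8 h changes, DAOY minus U87 mg, was called for 0 of 47 members in the fit of all 18 samples, where 0.0121% of 16482 genes were called (2 genes) and 1 member had an unadjusted p below 0.05 beside 8.88% of all genes. It was negative for 42 of 47, with a median of -0.23 beside -0.02 over all genes. All 7 alpha ring genes and all 6 ATPases were on the negative side, with medians of -0.23 and -0.19. The other complexes given below also had medians on the negative side. Over the fits that left out 1 library the median ran from -0.32 (without DAOY 0 h replicate 1) to -0.11 (without DAOY 0 h replicate 2).

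**Figure D4:**
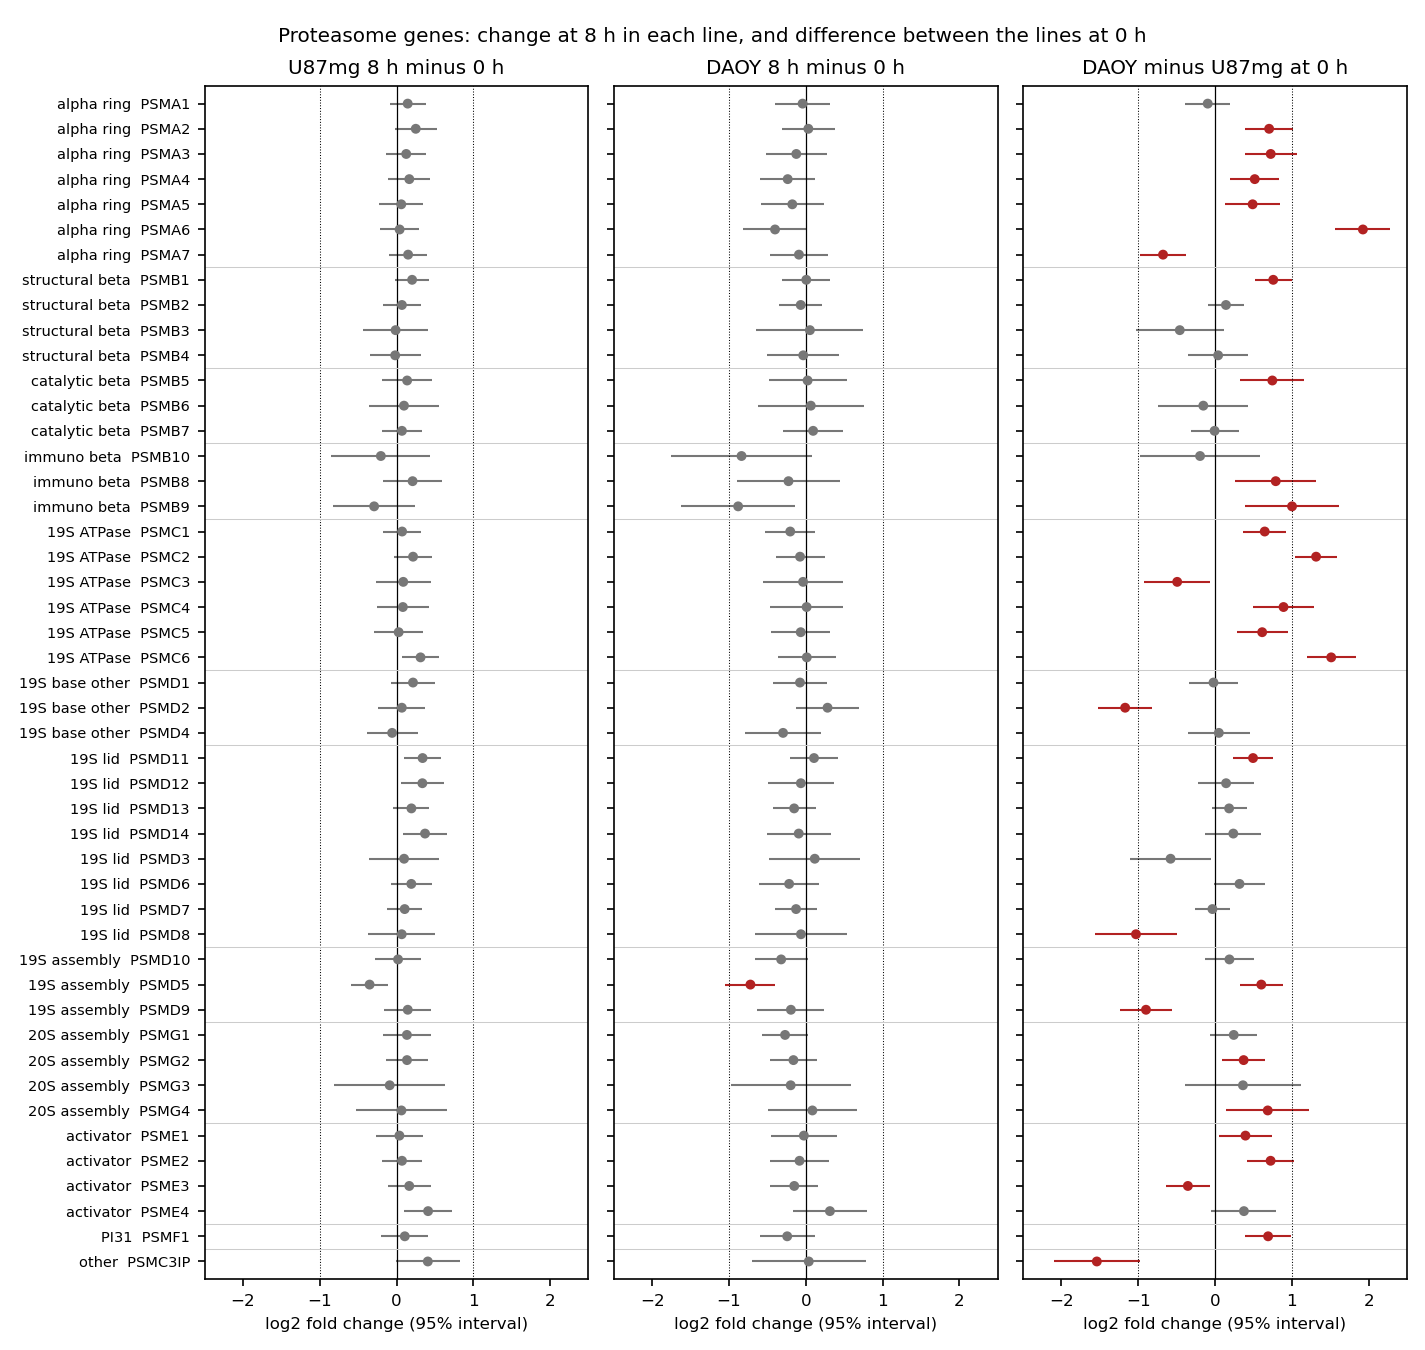
Log2 fold change with its 95% interval for each of the 47 tested genes, grouped by subcomplex, for 8 h minus 0 h in U87mg, 8 h minus 0 h in DAOY and DAOY minus U87mg at 0 h (red, FDR below 0.05; dotted lines, 2-fold). PSMD5 in DAOY is the only call over time, while 28 genes are called between the lines.

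The balance of transcripts was examined as the log2 ratio of counts on protein_coding transcripts to those on all other types, such as retained introns. Of the 417 transcripts, 190 were protein_coding, 137 retained_intron, 49 marked for nonsense-mediated decay and 41 processed_transcript. With limma, 0 of 37 members in U87 mg and 0 of 38 in DAOY had a changed ratio at 2 h or 8 h, beside 0.0171% (U87 mg, 2 h) and 0% of all genes (the other comparisons). At 8 h in DAOY the unadjusted p was below 0.05 for 6 of 38 members (15.8%), beside 9.88% of all 5710 genes, and the member median was -0.21 beside -0.19. The member with the lowest p was PSMB1, with a ratio change of -2.60 at an FDR of 0.27, and the member with the lowest ratio change was PSMC4, at -2.97 with an FDR of 0.45.

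Genes around the proteasome were followed in lists. NFE2L1 had 101, 149 and 118 CPM in DAOY at 0 h and 321, 339 and 440 CPM in U87 mg, groups far apart, and was lower in DAOY by -1.58 (-1.96 to -1.20, FDR 8.60e-07). DDI2, the protease that cuts the NFE2L1 protein into its active form, was higher in DAOY by 1.26 (FDR 3.30e-05). DDI2 shares exonic sequence with RSC1A1 on the same strand, and NFE2L1 with the antisense gene AC004477.2 on the opposite strand. Read assignment for both is therefore uncertain. ZFAND5, a zinc finger protein that binds the proteasome, was higher by 1.06 (FDR 0.00148), and POMP, which matures the 20S core, was higher by 0.88 (FDR 3.45e-04), though counted on protein_coding transcripts only its difference was 0.20 (FDR 0.852). SEM1, a small lid subunit listed as SHFM1, was lower by -0.64 (FDR 6.03e-04). ADRM1, a ubiquitin receptor of the cap, had -0.67 (FDR 0.0654) and was not called. In the antigen presentation list NLRC5, the activator of MHC class I genes, was lower in DAOY by -2.19 (FDR 1.70e-05) and HLA-C was higher by 1.61 (FDR 7.45e-05), the latter uncertain because reads are divided among similar HLA genes, with a difference of 13.4 on protein_coding transcripts only.

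Over time NFE2L1 and POMP were not called. NFE2L1 had a log2 change of -0.11 (FDR 0.83) at 8 h in U87 mg and of 0.05 (FDR 0.91) in DAOY, and POMP had 0.30 (FDR 0.30) and -0.07 (FDR 0.87). The small MAF genes, whose proteins pair with NFE2L1 and NFE2L2 on DNA and also form repressing pairs, did pass. In DAOY, MAFG had 50.1, 49.8 and 54.1 CPM at 0 h and 101, 119 and 119 CPM at 8 h, with no overlap and a change of 1.16 (FDR 0.0081). MAFF rose by 0.99 (FDR 0.0267), from 27.3, 25.1 and 30.2 CPM to 44.3, 50.9 and 66.8 CPM, also without overlap. MAFK rose by 1.31 (FDR 0.0429), from 7.89, 10.5 and 22.1 CPM to 30.0, 30.5 and 38.8 CPM. In U87 mg MAFK rose by 0.86 (FDR 0.0389), from 20.5, 26.5 and 26.8 CPM to 51.6, 32.9 and 47.4 CPM, and MAFG (50.1 ± 4.73 to 71.1 ± 4.77 CPM) was not called. MAFG shares exonic sequence with SIRT7 on the same strand, and MAFK with TMEM184A on the opposite strand. The assignment of their reads is therefore uncertain. The MAFK calls held in 5 of 19 alternative fits in U87 mg and in 7 of 19 in DAOY, the MAFG call in 18 of 19 and the MAFF call in 10 of 19. MAFG was lost without DAOY 8 h replicate 1 (1.13, FDR 0.0537). MAFF was lost without any 1 of the DAOY 0 h replicates or without 8 h replicate 1 or 2, at FDR up to 0.105. MAFK was lost in DAOY without any 1 library except 0 h replicate 2 (FDR up to 0.142), and in U87 mg in all fits without 1 library except those without 0 h replicate 0 or 8 h replicate 1 (FDR up to 0.206). Counted on protein_coding transcripts only, MAFK was not called in either line. With limma on log2(TPM + 1) or log2(TPM + 0.1), MAFK in both lines and MAFF in DAOY were not called.

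The COP9 signalosome and eIF3, which are built on the same plan as the lid, and the CCT chaperonin were counted in the same way. At 8 h, 0 of 9 COP9 signalosome genes, 0 of 13 eIF3 genes and 0 of 8 CCT chaperonin genes were called in either line. Their median log2 changes were 0.02, 0.11 and 0.21 in U87 mg, where the members had 0.11, and -0.19, -0.02 and -0.05 in DAOY, where the members had -0.08. In U87 mg, 6 of 9, 12 of 13 and 8 of 8 changes were above 0, as were 40 of 47 in the members. The difference of the 8 h changes, DAOY minus U87 mg, had medians of -0.21, -0.15 and -0.24, where the members had -0.23. It was negative for 7 of 9, 9 of 13 and 8 of 8 genes, so the negative side was not particular to the members. Between the lines at 0 h, 3 of 9 (33.3%), 3 of 13 (23.1%) and 6 of 8 (75%) were called, beside 60.7% of all genes. Of the other lists at 8 h in DAOY, where 5.85% of all genes were called, 1 of 9 proteasome-associated genes was called (PAAF1), 3 of 10 regulators (MAFF, MAFG and MAFK), and 0 of 11 shuttle and unfoldase genes, 0 of 5 ubiquitin genes and 0 of 10 antigen presentation genes. In U87 mg at 8 h, where 1.72% of all genes were called, the regulators gave 1 of 10 (MAFK) and the other lists 0.

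Antisense genes named after members have no protein_coding transcript and fall outside the name rule, and 2 of them were picked out after their values were seen. At 8 h PSMD6-AS2 was called as higher in both lines and PSMA3-AS1 in DAOY, while their partners PSMD6 and PSMA3 were not called.

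**Figure D5:**
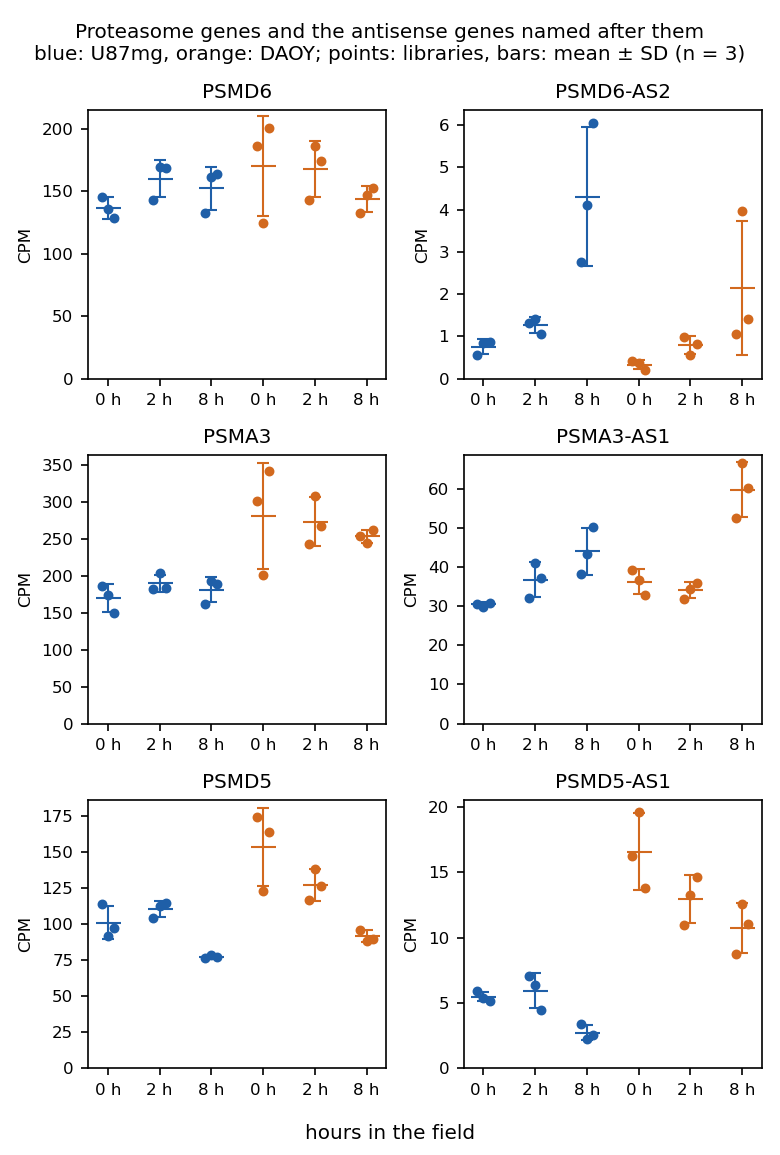
CPM of PSMD6, PSMA3 and PSMD5 (left) and of the antisense genes named after them (right) in each sample (points) with mean ± SD (n = 3), against hours in the field, U87mg in blue and DAOY in orange. PSMA3-AS1 has means of 36.2 CPM at 0 h and 59.8 CPM at 8 h in DAOY, with no overlap of samples.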

How the data were processed

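RNA-SEQ of 18 samples (2 cell lines at 3 times, 3 samples each) was taken from the table that the authors deposited. The authors assigned reads to GENCODE 24 transcripts with Kallisto 0.43.0, and the table they deposited gives, per transcript and sample, an estimated count and TPM, beside the p-values, q-values and fold changes of their Sleuth 0.28.1 comparisons, which were not used here. All 36 columns of per-sample values were assigned to a sample by name. Whether Kallisto used its strand option is not given in the sources used here.

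Counts were summed by gene name, rounded, filtered with filterByExpr, scaled by TMM and tested with edgeR 4.0.16 (glmQLFit and glmQLFTest, R 4.3.3), in 9 samples per line for the comparisons over time and in all 18 samples otherwise, with Benjamini-Hochberg adjustment (FDR) over all genes tested and calls at an FDR below 0.05. Intervals are 95% intervals from the test's standard error. The ratio of protein_coding to other counts was tested with limma 3.58.1 on log2 values with 1 count added. DESeq2 1.42.0, limma on log2(TPM + 1) and log2(TPM + 0.1), other filters, scalings and sample sets, a replicate block and each library left out were tried. Named were up to 12 called members per comparison with the largest changes, the catalytic subunits, the highest and lowest gene of each group, up to 5 called list genes per comparison, and NFE2L1, POMP, ADRM1 and SEM1. Other members and the antisense genes were named after their values were seen. The members and lists were chosen with earlier results of these data known. Figures were drawn with matplotlib 3.10.9.

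Tested on simulated counts for the 8 h comparison in U87 mg (13881 genes), edgeR called 31 of 50 genes changed 2-fold and 48 of 50 changed 4-fold, and in DAOY (15146 genes) 16 of 47 and 36 of 49. Depth was 8341976 to 15610886 counts per sample. Without molecular identifiers, statements on depth cover counting error only, and p-values measure only the spread between these samples.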

Additional observations from a re-analysis of the deposited data

Results flagged for a closer look

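Of the genes that the name rule leaves out, PSMD6-AS2 and PSMA3-AS1 held signal at 8 h above the 0 h samples. Of the 27 names that match the pattern without a protein_coding transcript, 22 were pseudogenes with 113.7 estimated counts over all 18 samples, and 5 were antisense genes with 10909.4. They were tested in the same edgeR fits and chosen for naming after their values were seen. PSMD6-AS2, an antisense gene at chr3:64004022-64012148 (plus strand, GENCODE 29, GRCh38) that overlaps exons of the lid gene PSMD6, had 0.555, 0.843 and 0.869 CPM at 0 h in U87 mg and 2.77, 4.10 and 6.06 CPM at 8 h, a log2 change of 2.49 (FDR 0.0164). In DAOY it had 0.412, 0.380 and 0.203 CPM at 0 h and 1.05, 3.97 and 1.41 CPM at 8 h, a change of 2.59 (FDR 0.0379). Samples of 8 h lay above those of 0 h in both lines, at levels near 1 CPM where few reads stand behind a value, and the call held in 12 of 17 alternative fits in U87 mg and in 5 of 17 in DAOY. In U87 mg it was lost without 0 h replicate 2 or 8 h replicate 2 (FDR up to 0.101 over all fits), and in DAOY without any 1 library except 8 h replicate 0 (FDR up to 0.14). PSMD6 itself had 0.19 (FDR 0.50) in U87 mg and -0.22 (FDR 0.52) in DAOY.

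PSMA3-AS1, antisense to the alpha ring gene PSMA3, had 39.2, 36.6 and 32.8 CPM at 0 h in DAOY and 52.6, 66.5 and 60.2 CPM at 8 h. The groups did not overlap, the log2 change was 0.75 (FDR 0.0220), and the call held in 13 of 18 alternative fits. It was lost without 0 h replicate 2 or 8 h replicate 1 or 2 (FDR up to 0.0955 over all fits). In U87 mg it had 30.4 ± 0.513 CPM at 0 h and 44.0 ± 6.02 CPM at 8 h, a change of 0.56 (0.24 to 0.89, FDR 0.0827) that was not called. As a share of the counts of PSMA3 and PSMA3-AS1 together it was 11.9 ± 3.32% at 0 h and 19.1 ± 2.14% at 8 h in DAOY. PSMD5-AS1 had log2 changes at 8 h of -0.97 (FDR 0.0926) in U87 mg and -0.61 (FDR 0.14) in DAOY, neither called. Where the counting ignored strand, reads of such genes and of their partners cannot be told apart.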

How the results depend on the processing

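Each of the 10 counts was recomputed under its alternatives, and 73 of 78 such values (libraries left out aside) stayed within 1.5 times the first count. Most of the 10 counts were 0, and 0 against 0 was taken as within that limit, so the 73 say little about stability. At an FDR below 0.05 together with a 2-fold change, the count between the lines was 7 (4 higher, 3 lower) in place of 28, and that for DAOY at 8 h was 0 in place of 1. The DAOY 8 h count was also 0 with only the 6 samples compared. The count of changed coding ratios at 8 h in DAOY was 1 in place of 0 with all 18 samples in one fit (PSMB1, FDR 0.028). The cause was not tested. Between the lines the other alternatives gave 21 to 32 called members.

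Leaving out each library in turn gave 0 to 8 members for U87 mg at 2 h, 0 to 1 for U87 mg at 8 h, 0 to 1 for DAOY at 8 h (0 in 5 of 9 fits) and 22 to 29 between the lines (28 with all libraries), and 0 throughout for DAOY at 2 h, the difference of the 8 h changes and the coding ratios. Single genes kept their direction wherever they were called. PSMB7, not called between the lines at -0.01, was called at 0.29 with limma on log2(TPM + 1) and at 0.29 on log2(TPM + 0.1).

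Replicate numbers are shared by the labels of the groups, and the correlation of the deviations of same-numbered samples was over 0.1 in 5 of 9 pairs in U87 mg (-0.143 to 0.209, median 0.118, against -0.031 for different numbers) and in 3 of 9 in DAOY (-0.18 to 0.396, median 0.058). In U87 mg all 3 pairs of 2 h with 8 h passed 0.1, but not all those with 0 h, so the numbers were not taken to pair the samples. With the replicate number as a block the counts were 0 for DAOY at 8 h (PSMD5, FDR 0.0543) and 21 between the lines (PSMB8, FDR 0.117, among those lost), and 0 as before for the other comparisons.

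What depth and spread allow differs by line. For genes with a 2-fold change in simulated data, edgeR called 31 of 50 in U87 mg and 16 of 47 in DAOY. With a 1.5-fold change it called 6 of 50 and 2 of 50. The changed genes were drawn from all genes that passed the filter, so these are not rates for the members. A count of 0 does not show that changes of 2-fold or less are absent. In the simulated DAOY data most changes of 2-fold were missed.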
